A study of Mus musculus with 20 samples.

Results

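The response to CI994, a benzamide that inhibits the class I histone deacetylases, was measured in M3 cells whose Mbd3 had been knocked down by an shRNA. M3 is 1 stable mesenchymal clone from Py2T, a mouse breast cancer line of the MMTV-PyMT model, in which the mouse mammary tumour virus promoter drives the polyoma middle T oncogene. The comparison used 4 of the 20 libraries of the series, all of them carrying the Mbd3 shRNA, so that the controls were knockdown cells too. In 2 of the 4 libraries the cells were untreated (shMbd3), and in the other 2 they had received 2 µM CI994 over 72 hours (shMbd3 CI994). The labels name no vehicle. A further 8 libraries of the same clone, carrying either shTet2 or a control shRNA (shControl), without or with the same CI994 treatment, shared the fit and served for comparison. Per the extract protocol the 2 replicates of each group came from independent experiments, and as all are of 1 clone the spread between them says nothing of other clones. Values are CPM, the reads of a gene scaled to a common library total, for 24454 genes, of which the 12808 with at least 0.5 CPM in 2 or more of the 12 libraries were tested. Where a pair of values is given, it is replicate 1 and replicate 2.

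Class I deacetylases remove acetyl groups from histone tails, a step linked to a closed chromatin state and low transcription. Hdac1 and Hdac2 act within several corepressor complexes, among them NuRD, Sin3 and CoREST, and Hdac3 acts in the NCoR and SMRT complexes. Mbd3 is a NuRD subunit that joins the deacetylase part of the complex to its nucleosome remodelling part. Inhibitors of these enzymes are known to raise histone acetylation, to switch on some silent genes and to lower the transcripts of others. The series title sets these proteins in the context of the shift between epithelial and mesenchymal states and of tumour invasion.

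Mbd3 (gene 17192, mm10 chr10:80392539-80399531) was at 22.1 and 27.7 CPM in untreated shMbd3 cells and at 16.6 and 21.9 CPM with CI994, against 53.6 to 86.3 CPM in the other libraries except 1. That exception was the library labelled shControl replicate 1, with 5.40 CPM of Mbd3. It also differed from its replicate along the GC content of the genes, with a trend of -1.77 in log2 between the outer GC deciles (highest minus lowest), and in the other 5 pairs this trend lay between -0.387 and 0.0140. No library of the shMbd3 comparison was affected directly, but the fit shares 1 estimate of spread over all 12 libraries, and this pair widened it. The 4 shMbd3 libraries held 23957128, 22413389, 23780905 and 16086082 reads, so that a 0 allows up to 3 reads, or 0.125 to 0.186 CPM, for counting error only. The shMbd3 cells expressed the mesenchymal genes Vim, Fn1 and Cdh2 (untreated 396 and 409, 2009 and 2289.7 and 308 and 315 CPM) but also the epithelial genes Cdh1 and Epcam (untreated 169.7 and 202 and 228 and 252 CPM). Untreated shControl cells had Vim at 1461 and 1525, Fn1 at 2358 and 4100 and Cdh2 at 243 and 248 CPM. Cdh1 was there at 16.3 and 25.7 and Epcam at 36.7 and 41.9 CPM. In such bulk samples a change in the share of cells and a change in RNA per cell cannot be told apart.

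CI994 raised more genes than it lowered in Mbd3 knockdown cells, and the rises were the larger changes. By limma with Benjamini-Hochberg adjustment, 970 genes rose (7.57% of those tested) and 655 fell (5.11%), together 1625 (12.7%). The tested genes include 99 that passed the filter on low values only through the shMbd3 CI994 libraries. Of these, 36 are among the 970 rises, and their calls are no support for a change. Beyond 2-fold the passing genes were 527 higher (4.11%) and 87 lower (0.679%). The largest rise was that of Cd74, the invariant chain of MHC class II, and the largest fall, among named genes with at least 5 CPM in the higher group, was that of Rcbtb2, whose product carries an RCC1 repeat and a BTB domain. With the GC trend of each library removed, 1571 genes rose and 1866 fell, so the share of calls that were higher moved from 59.7% to 45.7%. Without shControl replicate 1 the counts were 2777 higher (21.7%) and 2585 lower (20.2%), 5362 in all (41.9%), including all of the 1625. The gene lists described here are to be read against these shares, 12.7% in the main fit and 41.9% without that library. For most lists the counts of the latter fit are given too, as higher and lower. Leaving out 1 of the 4 shMbd3 libraries at a time left an arm with a lone library and 454 to 569 calls.

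**Figure D1:**
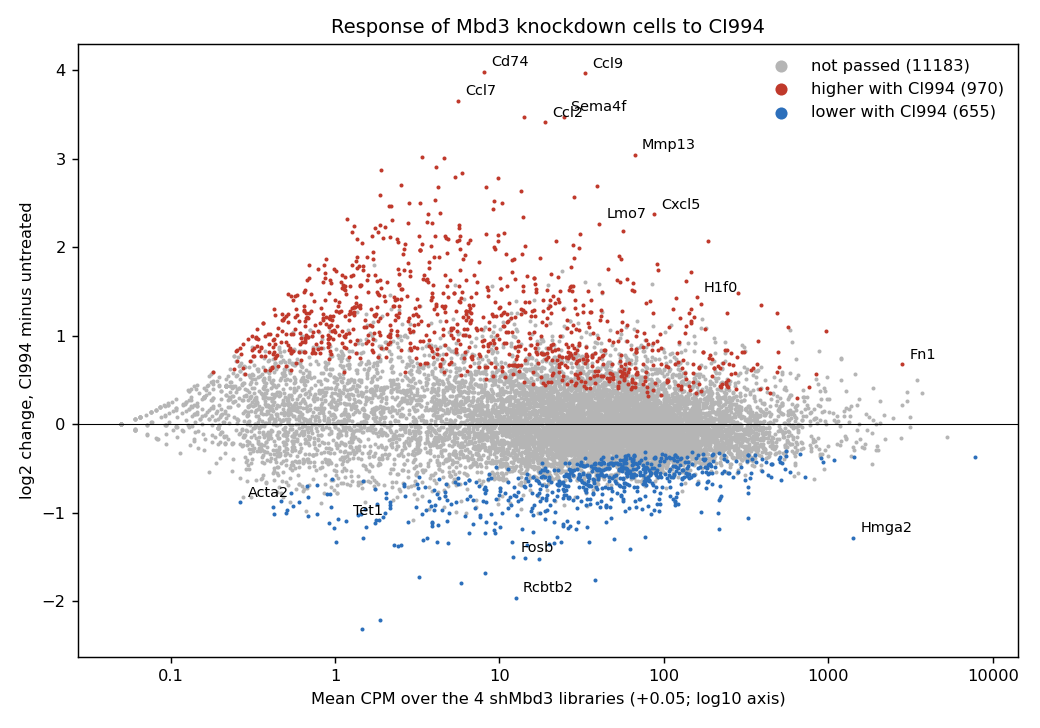
Log2 change with CI994 in shMbd3 cells (y axis) against the mean CPM over the 4 libraries (x axis, log10 scale, CPM + 0.05), 1 point per tested gene. The 970 genes that passed upwards reach a log2 change of 3.98, and the 655 that passed downwards reach -2.31.

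Among the 12 largest rises were 3 chemokines and 3 proteases. Cd74 went from 0.334 and 0.669 CPM in untreated cells to 16.7 and 14 CPM with CI994, a log2 change of 3.98 ± 0.32 (SE; limma adjusted p = 0.000305). Every fold and log2 change here is on the scale of CPM + 0.5, which compresses the change of genes near 0. Sema4f, a membrane semaphorin of axon guidance, was at 3.3 and 3.93 CPM untreated and 45.5 and 45.3 CPM with CI994, or 11.1-fold higher (adjusted p = 0.000137). Atp2b4, a calcium pump of the plasma membrane, was at 1.34 and 2.59 CPM untreated and 27.5 and 24.7 CPM treated, likewise 11.1-fold. Mmp13, a collagenase, stood at 12.5 and 15.3 CPM untreated and 128 and 109.7 CPM treated, 8.25-fold higher. The rule that named these genes required both treated libraries to lie above both untreated ones, as in 35.5% of all tested genes. For each of them the call held when any of the 4 libraries was left out. The other members of this set were Ccl9, Ccl7 and Ccl2, described below, and Pappa, Oacyl, Csdc2, Cmah and C1s1, with log2 changes of 3.02, 3.01, 2.90, 2.84 and 2.79. Pappa is a protease that cleaves IGF-binding proteins, Cmah is the hydroxylase that makes N-glycolylneuraminic acid, and C1s1 is a serine protease of the classical complement pathway.

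The sequences around the starts of these genes are shown to let the letters of rising and falling genes be compared: 4 of the 7 largest rises and the 2 largest falls, from the RefSeq promoter table, and H2-K1 and H2-D1, a pair of rising MHC class I genes added after their values were seen. Each run of 300 bases covers 250 before to 50 after the start, in GRCm38.p6, 5′ to 3′ along the gene's strand. For Atp2b4, Rcbtb2 and Itgb7 the start used lies inside the span of the gene and not at its outer end. Capitals mark CCAAT or its complement ATTGG and the AP-1 letters TGANTCA, and in H2-K1 and H2-D1 also the longest run of letters that both windows share. No entry was found for Ccl7 or Ccl2, and the window of Cd74 is not shown here.
Ccl9, rise, chr11:83578587-83578886, minus strand: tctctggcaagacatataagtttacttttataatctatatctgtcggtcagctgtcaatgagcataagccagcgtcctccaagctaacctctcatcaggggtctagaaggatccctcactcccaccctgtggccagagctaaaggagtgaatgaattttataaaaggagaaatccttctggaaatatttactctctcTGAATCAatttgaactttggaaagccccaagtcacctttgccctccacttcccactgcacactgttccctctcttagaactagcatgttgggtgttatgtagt
Sema4f, rise, chr6:82939720-82940019, minus strand: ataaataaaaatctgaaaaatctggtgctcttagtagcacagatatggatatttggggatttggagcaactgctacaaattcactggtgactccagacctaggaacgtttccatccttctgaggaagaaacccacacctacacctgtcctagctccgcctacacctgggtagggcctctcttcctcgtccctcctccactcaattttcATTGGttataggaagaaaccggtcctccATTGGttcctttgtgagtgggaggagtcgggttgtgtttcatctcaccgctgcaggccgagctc
Atp2b4, rise, chr1:133753698-133753997, minus strand: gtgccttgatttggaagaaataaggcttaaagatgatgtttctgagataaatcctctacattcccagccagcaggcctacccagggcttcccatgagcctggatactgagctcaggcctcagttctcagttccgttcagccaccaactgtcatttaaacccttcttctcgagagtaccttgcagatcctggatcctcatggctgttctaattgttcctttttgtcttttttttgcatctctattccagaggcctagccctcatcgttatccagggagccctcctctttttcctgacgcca
Mmp13, rise, chr9:7272264-7272563, plus strand: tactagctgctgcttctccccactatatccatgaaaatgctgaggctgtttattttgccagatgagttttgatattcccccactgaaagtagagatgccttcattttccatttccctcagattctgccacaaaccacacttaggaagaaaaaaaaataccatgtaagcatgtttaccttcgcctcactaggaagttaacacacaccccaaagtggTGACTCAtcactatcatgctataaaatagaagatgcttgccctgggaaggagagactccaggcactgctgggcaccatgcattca
H2-K1, rise, chr17:34000298-34000597, minus strand: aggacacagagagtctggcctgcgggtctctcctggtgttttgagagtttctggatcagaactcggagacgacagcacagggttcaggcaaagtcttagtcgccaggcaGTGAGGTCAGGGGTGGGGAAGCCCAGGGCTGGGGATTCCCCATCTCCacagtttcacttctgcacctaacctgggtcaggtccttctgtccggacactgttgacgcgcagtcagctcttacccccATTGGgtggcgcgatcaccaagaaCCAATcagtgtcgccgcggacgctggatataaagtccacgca
H2-D1, rise, chr17:35262844-35263143, plus strand: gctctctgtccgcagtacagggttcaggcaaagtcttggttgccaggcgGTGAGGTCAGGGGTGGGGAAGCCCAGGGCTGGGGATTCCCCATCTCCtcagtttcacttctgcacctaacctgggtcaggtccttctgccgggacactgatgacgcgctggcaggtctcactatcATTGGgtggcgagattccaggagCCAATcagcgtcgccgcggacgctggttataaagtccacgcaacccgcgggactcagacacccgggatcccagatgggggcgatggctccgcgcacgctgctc
Rcbtb2, fall, chr14:73142535-73142834, plus strand: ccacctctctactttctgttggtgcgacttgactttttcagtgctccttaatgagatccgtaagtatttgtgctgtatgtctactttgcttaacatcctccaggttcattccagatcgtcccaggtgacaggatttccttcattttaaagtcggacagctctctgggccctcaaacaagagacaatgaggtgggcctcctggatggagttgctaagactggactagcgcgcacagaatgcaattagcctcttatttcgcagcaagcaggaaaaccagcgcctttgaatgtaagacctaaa
Itgb7, fall, chr15:102231886-102232185, minus strand: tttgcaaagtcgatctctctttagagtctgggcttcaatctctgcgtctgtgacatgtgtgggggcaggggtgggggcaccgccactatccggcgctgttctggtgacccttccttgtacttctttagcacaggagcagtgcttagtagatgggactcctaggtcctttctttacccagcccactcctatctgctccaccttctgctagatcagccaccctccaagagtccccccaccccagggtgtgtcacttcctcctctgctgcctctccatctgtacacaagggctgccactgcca

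Few CpG dinucleotides stood in the windows of the leading rises: 2 in Ccl9, 7 in Sema4f, 4 in Atp2b4 and 1 in Mmp13. Rcbtb2 and Itgb7 held 8 and 5, and the MHC genes H2-K1 and H2-D1 held 14 and 19. None of the 8 windows held GGGCGG, the GC box, on either strand. Over all tested genes with an entry (10087, 78.8% of those tested, under 80%, so that a comparison of windows by call is void as a check of all genes and the shares below count these windows only), 64.5% of windows held it. The median CpG count was 14 in windows of genes that rose, 22 in those of genes that fell and 21 in those of genes that were not called. TGANTCA, searched on both strands, stood once in Ccl9 and once in Mmp13, and in 9.84% of windows of rising genes, 4.17% of falling and 5.17% of uncalled genes. CCAAT stood in 35.4% of windows of rising, 35.2% of falling and 40.4% of uncalled genes, and in Sema4f, H2-K1 and H2-D1. The windows of H2-K1 and H2-D1 shared an unbroken run of 47 bases. These shares are a description with no test, the AP-1 letters and the shared run were chosen after the sequences were seen, and a match is not a site.

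Several chemokine genes were among the calls. Of 21 tested chemokines and cytokines, 10 rose, 0 fell and 11 did not pass, with a median log2 change of 0.58 against 0.00 over all tested genes. Without shControl replicate 1 the counts were 12 higher and 1 lower. Ccl9, a chemokine that attracts myeloid cells, was at 3.84 and 3.21 CPM untreated and 68.4 and 57.5 CPM with CI994, 15.6-fold higher (log2 3.97 ± 0.41, adjusted p = 0.000663). Ccl2, the main attractant of monocytes, measured 2.75 and 2.77 CPM untreated and 40.7 and 29.3 CPM treated (log2 3.41 ± 0.28). Ccl7, a related monocyte chemokine, rose from 0.417 and 0.312 to 12.3 and 9.08 CPM (log2 3.66 ± 0.30). In each of the 3 genes the lowest treated library exceeded the highest untreated one, as the rule that named them required. Other rising members included Il1rn, the antagonist of the interleukin 1 receptor, from 0.292 and 0.268 to 3.2 and 2.74 CPM, and Il1a, an alarm cytokine, from 1.54 and 1.83 to 5.09 and 7.15 CPM. Csf1, the growth factor of macrophages, rose from 228 and 199 to 424 and 339 CPM, but its call was lost in 2 of the 4 fits that left out a library (highest adjusted p 0.081). Those 3 members were chosen after their values were seen.

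Apart from Cxcl16 (log2 0.85 ± 0.18), the rising chemokine genes of the list lay in 3 stretches of the genome, which were chosen after the values were seen. On chromosome 5 (chr5:90759298-90905938) there were 7 genes, of which 4 were tested and all 4 rose. They were Cxcl5, Ppbp, Cxcl3 and Cxcl1, which code for attractants of neutrophils or related platelet proteins. Cxcl5 measured 25 and 31 CPM untreated and 138 and 155 CPM treated, and Cxcl1 3.84 and 1.87 and 18.2 and 17.5 CPM. Cxcl3 was at 2.3 and 2.05 CPM before and 10.6 and 11.2 CPM after treatment, and Ppbp at 3.3 and 3.35 and 10.1 and 9.82 CPM. Their neighbours Pf4, Cxcl15 and Cxcl2 stayed at or under 0.0841 CPM in all 4 libraries, below the 3-read floor. The stretch from Ccl2 to Ccl8 on chromosome 11 (chr11:82035577-82116799) held 5 genes, of which Ccl2, Ccl7 and Ccl8 were tested and rose. Ccl8 did so from 0 in both untreated libraries to 0.336 and 0.186 CPM. The value of treated replicate 2 is itself the floor of 3 reads, so only treated replicate 1 lay above the floor. Ccl8 lost its call in all 4 fits that left out a library. From Ccl5 to Ccl4 on the same chromosome (chr11:83525778-83664683) 3 of 6 genes were tested and rose, namely Ccl9, Ccl6 and the gene model E230016K23Rik. Ccl6 measured 1.09 and 1.29 CPM untreated and 4.84 and 3.54 CPM treated. E230016K23Rik, at 0.334 and 0.446 and 4.12 and 3.79 CPM, spans the Ccl6 gene, and whether reads were assigned by strand is not given in the sources used here.

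**Figure D2:**
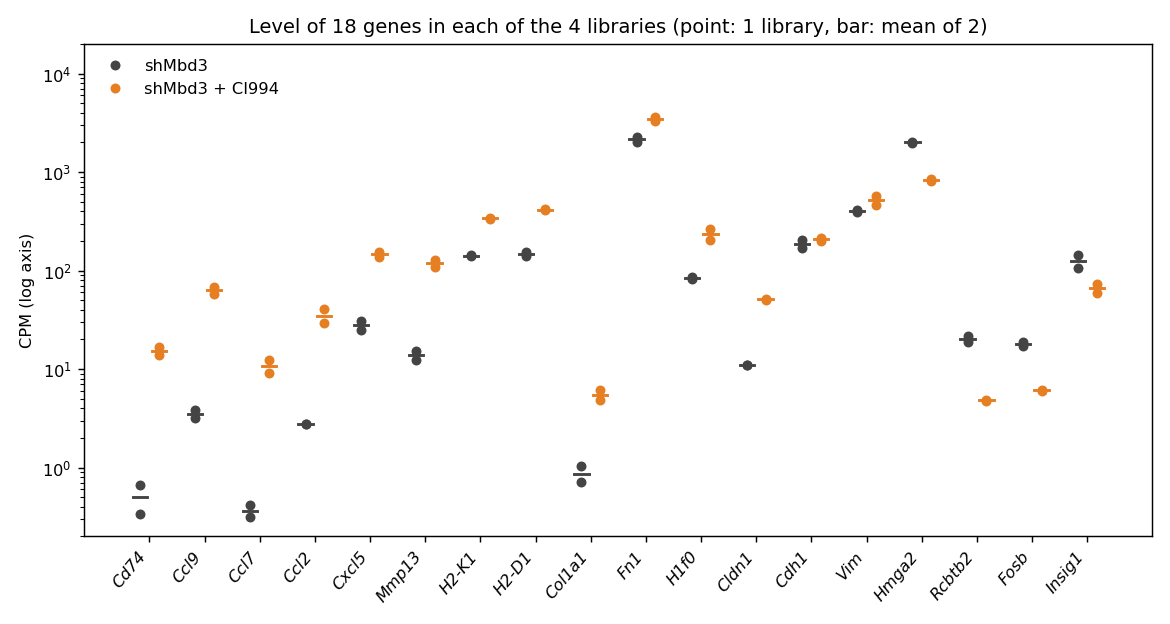
CPM (y axis, log scale) of 18 genes in each of the 4 libraries, grey for untreated shMbd3 and orange for shMbd3 with CI994, with 1 point per library and a bar at the mean of 2. The points of the groups do not overlap for any gene shown except Cdh1, where the treated 212 and 201 CPM straddle the higher untreated value of 202. Of all tested genes, 35.5% likewise had both treated libraries above both untreated ones, and 34.5% had both below.

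Genes of antigen presentation by MHC class I, which displays peptides from inside the cell to T cells, gave the highest share of rises among lists with at least 5 tested members. Of 17 tested members 12 rose, 1 fell and 4 did not pass, with a median log2 change of 1.25 (13 higher and 2 lower without shControl replicate 1). H2-D1, a classical class I heavy chain, was at 142 and 153 CPM untreated and 421 and 408 CPM with CI994 (2.79-fold, log2 1.48 ± 0.19, adjusted p = 0.00164). H2-K1, the other classical heavy chain measured, was at 139 and 143 CPM untreated and 346 and 333 CPM treated (2.39-fold). Nlrc5, the transcriptional activator of class I genes, rose from 2.8 and 3.12 to 11.9 and 12 CPM (log2 1.84 ± 0.18). The 2 replicates of each group nearly coincided for these genes. H2-Q7 and H2-Q6, non-classical heavy chains, measured 7.01 and 7.9 and 4.51 and 5.31 CPM untreated and 22.8 and 26.5 and 13.2 and 17.4 CPM treated. Both lost the call in all 4 fits that left out a library (highest adjusted p 0.108 and 0.237), as did H2-T23, at 14.8 and 16.1 and 40.8 and 42.8 CPM (0.142). The heavy chain genes are near-identical copies, and how reads shared by them were assigned is not given in the sources used here, so the values of single members are uncertain. Erap1, the aminopeptidase that trims peptides in the endoplasmic reticulum, was the member that fell, from 95.7 and 99.5 to 50.4 and 49.7 CPM, and it lost its call in all 4 such fits (0.089).

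Peptide loading genes rose beside MHC class II genes within 1 stretch of chromosome 17 (chr17:34119693-34216321), where 4 of 6 tested genes passed. Tap1 and Tap2 form the transporter that moves peptides into the endoplasmic reticulum, and Tap1 measured 5.18 and 4.95 CPM untreated and 13.8 and 11.8 CPM treated. Psmb8, a subunit of the immunoproteasome, measured 2.67 and 2.1 CPM untreated and 7.19 and 6.22 CPM treated, and its partner Psmb9 stayed without a call at 1.13 and 1.16 and 2.52 and 1.86 CPM (adjusted p = 0.137). Of 11 members of the class II list 4 were tested, and Cd74 and H2-DMa, which edits the peptides bound by class II, rose. Without shControl replicate 1 the list gave 3 higher and 0 lower. H2-DMa was at 0.71 and 1.65 CPM untreated and 3.11 and 4.17 CPM treated. The class II chain H2-Aa was at 0 in all 4 libraries. Without 1 library at a time Tap1 and H2-DMa each lost the call in 3 of 4 fits (highest adjusted p 0.0804 and 0.111) and Psmb8 in 4 (0.194).

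Of 25 tested interferon-stimulated genes 6 rose, 1 fell and 18 did not pass, with a median log2 change of 0.16 (9 and 3 without shControl replicate 1). Isg15, a ubiquitin-like modifier, was at 0.668 and 0.758 CPM untreated and 4.16 and 4.91 CPM treated (log2 2.03 ± 0.32). Bst2, the membrane tether of budding virus, rose from 24.7 and 24.8 to 57.2 and 57 CPM, and Oas3, a sensor of double-stranded RNA, from 0.125 and 0.223 to 1.72 and 1.8 CPM. These 3 calls held without any of the 4 libraries. Rtp4 fell from 3.17 and 3.44 to 1.6 and 2.11 CPM, and Gbp3, a guanylate-binding protein, rose from 1.29 and 1.34 to 4.04 and 2.67 CPM. The calls of Rtp4 and Gbp3 were lost in all 4 fits that left out a library (highest adjusted p 0.209 and 0.255).

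Several of the rising genes are also markers of macrophages, and the 12 haematopoietic markers were therefore read in full. Their summed level was 1.503 and 2.19 CPM untreated and 7.78 and 9.14 CPM with CI994. Of these markers 2 were tested. Cd68, a lysosomal protein, rose from 0.918 and 1.47 to 6.69 and 7.02 CPM. Csf1r, the receptor of Csf1, was at 0.417 and 0.446 CPM untreated and 0.883 and 1.93 CPM treated, and as it passed the filter on low values only through the treated shMbd3 libraries, its call is no support for a change. The defining markers Adgre1, Cd3e, Coro1a, Spi1 and Tyrobp were at 0 in all 4 libraries, and Ptprc, the pan-leukocyte CD45, was at no more than 0.186 CPM. Lyz2, a lysozyme of myeloid cells that is not on the list, went from 0.209 and 0.357 to 4.75 and 4.6 CPM.

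Of 21 tested matrix and mesenchymal genes 8 rose, 1 fell and 12 did not pass, with a median log2 change of 0.35 (11 and 3 without shControl replicate 1). Col1a1, a chain of type I collagen, measured 0.71 and 1.03 CPM untreated and 4.88 and 6.15 CPM treated (log2 2.12 ± 0.24, adjusted p = 0.00101). Fbn1, the fibrillin of microfibrils, rose from 1.25 and 1.52 to 7.74 and 7.83 CPM, with the call lost in 2 of 4 fits without a library (highest adjusted p 0.0637). Col5a1, a type V collagen chain, had 2 reads in the untreated libraries together and 49 in the treated, a ratio per read sequenced of 28.5 with a counting interval of 7.48 to 242 (95%, exact binomial). Fn1, fibronectin, was far above these at 2009 and 2289.7 CPM untreated and rose to 3315 and 3602 CPM, 1.6-fold, with an adjusted p of 0.0481, and of up to 0.262 when a library was left out. Vim, the mesenchymal filament protein, measured 396 and 409 CPM untreated and 468 and 567 CPM treated and did not pass (log2 0.35 ± 0.11, adjusted p = 0.0609; 0.00659 without shControl replicate 1). Cdh2, the mesenchymal cadherin, gave 308 and 315 and 317 and 336 CPM, a log2 change of 0.06 ± 0.10. Acta2, smooth muscle actin, was the member that fell, from 0.417 and 0.446 CPM to 0 in both treated libraries.

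Among proteases and their inhibitors, 8 of 23 tested genes rose, 1 fell and 14 did not pass (median 0.36; 12 and 3 without shControl replicate 1). Beside Mmp13 the set held Plat, the tissue plasminogen activator, at 0.584 and 0.625 CPM untreated and 5.8 and 5.84 CPM treated (5.65-fold, adjusted p = 0.000137). Adam12, a membrane metalloprotease, was the one that fell, from 166 and 141 to 81.9 and 80.2 CPM, and lost its call in all 4 fits without a library (highest adjusted p 0.182). Integrin and laminin genes gave 4 rises and 2 falls among 23 (median 0.41; 14 and 3 in the same setting). Lama4, a laminin chain of vessel walls, rose from 0.376 and 0.58 to 5.21 and 4.91 CPM, Itgb3, the beta chain of the vitronectin receptor, from 13.1 and 14.9 to 40.7 and 41.2 CPM, and Itga1, an alpha chain of a collagen receptor, from 0.334 and 0.312 to 1.47 and 1.43 CPM. Itgb7, a beta chain known from lymphocyte homing, fell from 8.39 and 10.1 to 2.44 and 2.18 CPM, and its call was lost in all 4 fits without a library (0.12). Of 20 actomyosin genes 5 rose and 1, Acta2, fell (14 and 2). Des, the muscle filament desmin, went from 0.167 and 0.446 to 3.95 and 3.98 CPM, and Vcl, the focal adhesion protein vinculin, from 285 and 257 to 466 and 386 CPM, with Vcl losing its call in 3 of the 4 fits (0.162).

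Of 38 tested epithelial junction and identity genes 5 rose, 2 fell and 31 did not pass (18.4% called against 12.7% of all genes). The median log2 change was 0.33, and 33 of 38 values were above 0, against 6410 of 12808 over all tested genes. Without shControl replicate 1 the counts were 21 and 2 (60.5% against 41.9%). The same list gave 10 rises and 2 falls in shTet2 (median 0.41). In shControl, with replicate 1 included, it gave 23 and 0 (median 0.88). In shMbd3 cells Cldn1, a tight junction claudin, rose most, from 11 and 11.1 to 51.5 and 50.3 CPM (4.43-fold, log2 2.15 ± 0.20, adjusted p = 0.000472). Ocln, occludin of the same junctions, rose from 12.6 and 10.9 to 35.2 and 27.9 CPM. Both calls held without any of the 4 libraries. Elf3, an epithelial transcription factor, and Dsg2, a desmosomal cadherin, rose to 8.83 and 9.2 and 14.1 and 14.7 CPM from 3.26 and 3.52 and 7.6 and 7.09, and both lost the call in all 4 fits without a library (highest adjusted p 0.0872 and 0.155). The falls were those of Grhl2 and Ovol1, a pair of transcription factors known to maintain the epithelial state. Grhl2 went from 51.8 and 57.2 to 40.4 and 39.8 CPM and Ovol1 from 1.92 and 2.54 to 0.925 and 1.37 CPM, again with calls lost in all 4 such fits (0.199 and 0.259). E-cadherin, Cdh1, was at 169.7 and 202 CPM untreated and 212 and 201 CPM treated (log2 0.15 ± 0.16, adjusted p = 0.577), and the groups overlapped. Epcam, an epithelial adhesion protein, gave 228 and 252 and 197 and 217 CPM (log2 -0.22 ± 0.11, adjusted p = 0.221). The keratins of simple epithelia, Krt8 and Krt18, read after their values were seen, gave log2 changes of 0.51 and 0.21 without a call (adjusted p = 0.414 and 0.671).

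Of 25 tested transcription factors of the epithelial-mesenchymal transition 5 fell, 2 rose and 18 did not pass (median -0.12; 3 higher and 9 lower without shControl replicate 1). Prrx1, a homeobox factor of mesenchyme, fell from 59.8 and 61.6 to 27 and 29.4 CPM (log2 -1.10 ± 0.18), and Foxc1, a developmental regulator, fell from 20.8 and 22 to 12.2 and 12.1 CPM. Id1, an inhibitor of helix-loop-helix factors and a target of BMP signals, rose from 11.4 and 12.4 to 27.2 and 31.3 CPM (log2 1.26 ± 0.16). Zeb1, a repressor of Cdh1, measured 21.1 and 19.4 and 20.1 and 20.8 CPM, a log2 change of 0.01 ± 0.13. Snai1, another such repressor, measured 4.17 and 5.13 CPM untreated and 8.79 and 10.5 CPM treated, and did not pass (adjusted p = 0.0915; 0.000529 without shControl replicate 1). Leaving out a library ended the call of Foxc1 in all 4 fits (highest adjusted p 0.109) and that of Prrx1 in 1 (0.0552).

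In TGF-beta, activin and BMP signalling 5 of 42 tested genes rose, 3 fell and 34 did not pass (median 0.11; 10 and 5 without shControl replicate 1). The rises held Ccn2, a matricellular protein and target of the pathway, at 191 and 152 CPM untreated and 334 and 284 CPM treated, and the ligand chain Inhba, at 28.2 and 27.7 and 49.6 and 40.4 CPM. Tgif2, a corepressor of the pathway, rose from 1.34 and 1.16 to 2.82 and 3.17 CPM while its relative Tgif1 fell from 358 and 369 to 260.3 and 288 CPM. Smad5, a mediator of BMP signals, fell from 143 and 135 to 104 and 89.5 CPM, and Ltbp1, a latent TGF-beta binding protein, from 397 and 377 to 307 and 284 CPM. Leaving out a library raised the adjusted p of these calls to between 0.0999 (Ccn2, lost in 2 of 4 fits) and 0.279 (Smad5, lost in 4).

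Of 27 AP-1 and immediate early genes 2 were higher, 3 lower and 22 did not pass (median 0.26; 9 and 6 without shControl replicate 1). Fos, an AP-1 subunit, was at 2.75 and 1.92 CPM untreated and 7.7 and 10.4 CPM treated (log2 1.74 ± 0.28), and Fosl2 at 145 and 128 and 197 and 179 CPM. Fosb, another subunit, fell from 17.2 and 19 to 6.1 and 6.03 CPM (log2 -1.51 ± 0.19, adjusted p = 0.00153). The zinc finger factors Egr1 and Egr2 fell from 10.3 and 8.3 and 1.25 and 1.52 to 3.62 and 3.73 and 0.294 and 0.435 CPM. The calls of Fosb and Egr2 held without any of the 4 libraries, that of Fos was lost without shMbd3 replicate 2 (adjusted p 0.0536), that of Egr1 in 3 fits (up to 0.109) and that of Fosl2 in all 4 (up to 0.226).

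Among the drug's targets and their partners, 2 of 16 tested deacetylases rose, 1 fell and 13 did not pass (median 0.32), or 18.8% called against 12.7% of all genes. They gave 7 and 2 without shControl replicate 1 (56.2% against 41.9%). Hdac1 measured 83.9 and 84.5 CPM untreated and 102 and 111 CPM treated (1.26-fold, adjusted p = 0.0452), and its call was lost in all 4 fits without a library (up to 0.273). Hdac2, Hdac3 and Hdac8, the other class I enzymes, had log2 changes of -0.31, -0.11 and -0.24 and adjusted p of 0.458, 0.457 and 0.287. Hdac2 passed without shControl replicate 1 (adjusted p = 0.0307). Hdac11, the class IV enzyme, rose from 6.26 and 6.16 to 11.7 and 12.7 CPM, and Sirt1, a NAD-dependent deacetylase, fell from 69.5 and 76 to 40.7 and 40 CPM. Of 15 NuRD subunits Hdac1 rose, Cdk2ap1 fell and 13 did not pass (median -0.09; 3 and 5 without shControl replicate 1), among them Mbd3 itself, with a log2 change of -0.38 ± 0.81 (adjusted p = 0.808; 0.066 without that library) and its relative Mbd2 with -0.11 ± 0.11. Of 24 subunits of the other class I complexes 1 rose and 1 fell (median -0.01; 5 and 4). Acetyltransferases and bromodomain readers, which write and bind the marks that deacetylases remove, gave 0 rises, 5 falls and 13 without a call among 18 (median -0.25; 27.8% called), and 2 and 9 without shControl replicate 1 (61.1%). Brpf3, a scaffold of acetyltransferase complexes, fell from 59.9 and 63 to 28.7 and 35.9 CPM, and Ep300, a general coactivator, from 126 and 135 to 99 and 106 CPM. Of 14 genes of DNA methylation 2 fell (5 without that library), among them Tet1, a 5-methylcytosine oxidase, from 1.34 and 2.05 to 0.673 and 0.373 CPM. Tet2 gave 10.9 and 12.4 and 11.8 and 10.4 CPM. Leaving out a library ended the calls of Hdac11, Sirt1, Cdk2ap1, Ep300 and Tet1 in all 4 fits and that of Brpf3 in 3 (highest adjusted p 0.128 to 0.233).

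The linker histone gene H1f0, which is known to respond to deacetylase inhibitors, was at 82.3 and 86.9 CPM untreated and 204 and 261 CPM treated (2.71-fold, log2 1.44 ± 0.17, adjusted p = 0.00134). It was the only rise among 13 tested replication-independent histone genes, of which 12 did not pass, and its call held without any of the 4 libraries. Without shControl replicate 1 the list gave 2 higher and 0 lower.

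Of 39 cell cycle genes 1 was higher, 2 were lower and 36 did not pass (median -0.12), or 7.69% called against 12.7% of all genes. The counts were 5 higher and 15 lower without shControl replicate 1, or 51.3% against 41.9%. Mcm6, a subunit of the replicative helicase, went from 479.6 and 473 to 352 and 358 CPM and Ccnd1, cyclin D1, from 1663 and 1567 to 1271 and 1234 CPM, both lower. Ccne1, cyclin E1, was higher, at 63.3 and 58.1 CPM against 47.7 and 42. Of 4 tested CDK inhibitors 2 rose: Cdkn1a, the p21 inhibitor, from 209 and 192 to 281 and 269.9 CPM (1.37-fold, adjusted p = 0.0426), and Cdkn2d, of the INK4 family, from 14.5 and 16.4 to 25.1 and 26.9 CPM. Cdkn1c was at 0 in all 4 libraries. Of 39 p53 targets and apoptosis regulators 3 rose and 0 fell (median 0.04; 7.69% called, and 14 and 4 or 46.2% without shControl replicate 1). The rises were Cdkn1a, the death receptor Fas, from 0.292 and 0.491 to 3.99 and 1.86 CPM, and the BH3-only gene Pmaip1, from 6.68 and 6.65 to 15.3 and 15.7 CPM. Without a library at a time Mcm6, Ccnd1, Ccne1, Cdkn1a and Pmaip1 lost the call in all 4 fits, and Cdkn2d and Fas in 3 (highest adjusted p 0.0826 to 0.275).

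Of 30 tested genes of cholesterol and fatty acid synthesis 9 fell, 0 rose and 21 did not pass (median -0.17). Without shControl replicate 1 the counts were 14 lower and 3 higher. Insig1, the sterol sensor that holds back SREBP, fell from 106 and 143 to 59.1 and 73.7 CPM, Cyp51, the lanosterol demethylase, from 185 and 202 to 115 and 129 CPM, and Nsdhl, a later enzyme of the pathway, from 90.3 and 92.4 to 55.4 and 59.6 CPM. Nsdhl kept its call without any of the 4 libraries, and Insig1 and Cyp51 each lost it in 2 fits (highest adjusted p 0.122 and 0.0781). Among 28 genes of the integrated stress response and of protein unfolding 4 fell and 0 rose (median -0.16; 10 lower and 1 higher without shControl replicate 1). Atf4, the central factor of that response, fell from 402 and 419.7 to 231 and 250.03 CPM (1.72-fold lower, adjusted p = 0.00207), and its targets Atf5, Psat1 and Mthfd2 fell with log2 changes of -0.84, -0.37 and -0.51. The call of Atf4 held without any of the 4 libraries, whereas that of Atf5 was lost in 3 fits (up to 0.108) and those of Psat1 and Mthfd2 in all 4 (up to 0.245 and 0.291).

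Glycolysis and hypoxia genes gave 1 rise and 3 falls among 31 (median 0.09), and without shControl replicate 1 they gave 10 and 5. Pfkp, the platelet isoform of phosphofructokinase, rose from 27.4 and 25.3 to 87.8 and 76.3 CPM (3.06-fold, adjusted p = 0.000432). Pdk1, a pyruvate dehydrogenase kinase, fell from 28.1 and 31 to 12.7 and 14.2 CPM. Of 18 genes of metal and oxidative stress (8 and 4 without that library) Txnip, an inhibitor of thioredoxin, and Sod3, the extracellular superoxide dismutase, rose, from 4.76 and 5.93 to 24.4 and 19.3 CPM and from 8.56 and 9.19 to 22.8 and 22.1 CPM. These 4 calls held without any of the 4 libraries. Lysosome and autophagy genes gave 4 rises and 1 fall among 28 (median 0.28; 12 and 3). The cathepsin Ctsz rose from 86.2 and 90.2 to 174 and 188 CPM, and Mitf, a regulator of lysosomal and melanocyte genes, from 5.34 and 5.13 to 10.8 and 10.6 CPM, and both lost the call in all 4 fits without a library (0.143 and 0.0926). Ribosomal protein genes, a reference set, gave 0 rises and 2 falls among 40 (median -0.08), and 9 and 13 without shControl replicate 1.

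Receptor tyrosine kinases rose in 7 of 26 tested cases, fell in 0 and did not pass in 19 (median 0.32; 10 and 1 without shControl replicate 1). Epha1, an ephrin receptor of epithelia, went from 21.1 and 22.9 to 87.4 and 81.1 CPM (3.74-fold, adjusted p = 0.000137), and Pdgfra, a growth factor receptor of mesenchyme, from 12.9 and 14.1 to 40.9 and 40.6 CPM (2.94-fold). Both held without any of the 4 libraries. Ret, the receptor of GDNF family ligands, rose from 64.5 and 65.4 to 168 and 156 CPM, with the call lost in 3 fits (up to 0.0625). Of 26 Wnt pathway genes 4 rose and 0 fell (median 0.27; 9 and 2). They included the ligands Wnt9a and Wnt10a, from 4.68 and 4.77 and 17.1 and 13.6 to 12.1 and 9.2 and 29.4 and 26.2 CPM, and Dkk2, an antagonist, from 3.97 and 2.77 to 6.56 and 8.58 CPM, and these 3 lost the call in all 4 fits without a library (up to 0.207).

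**Figure D3:**
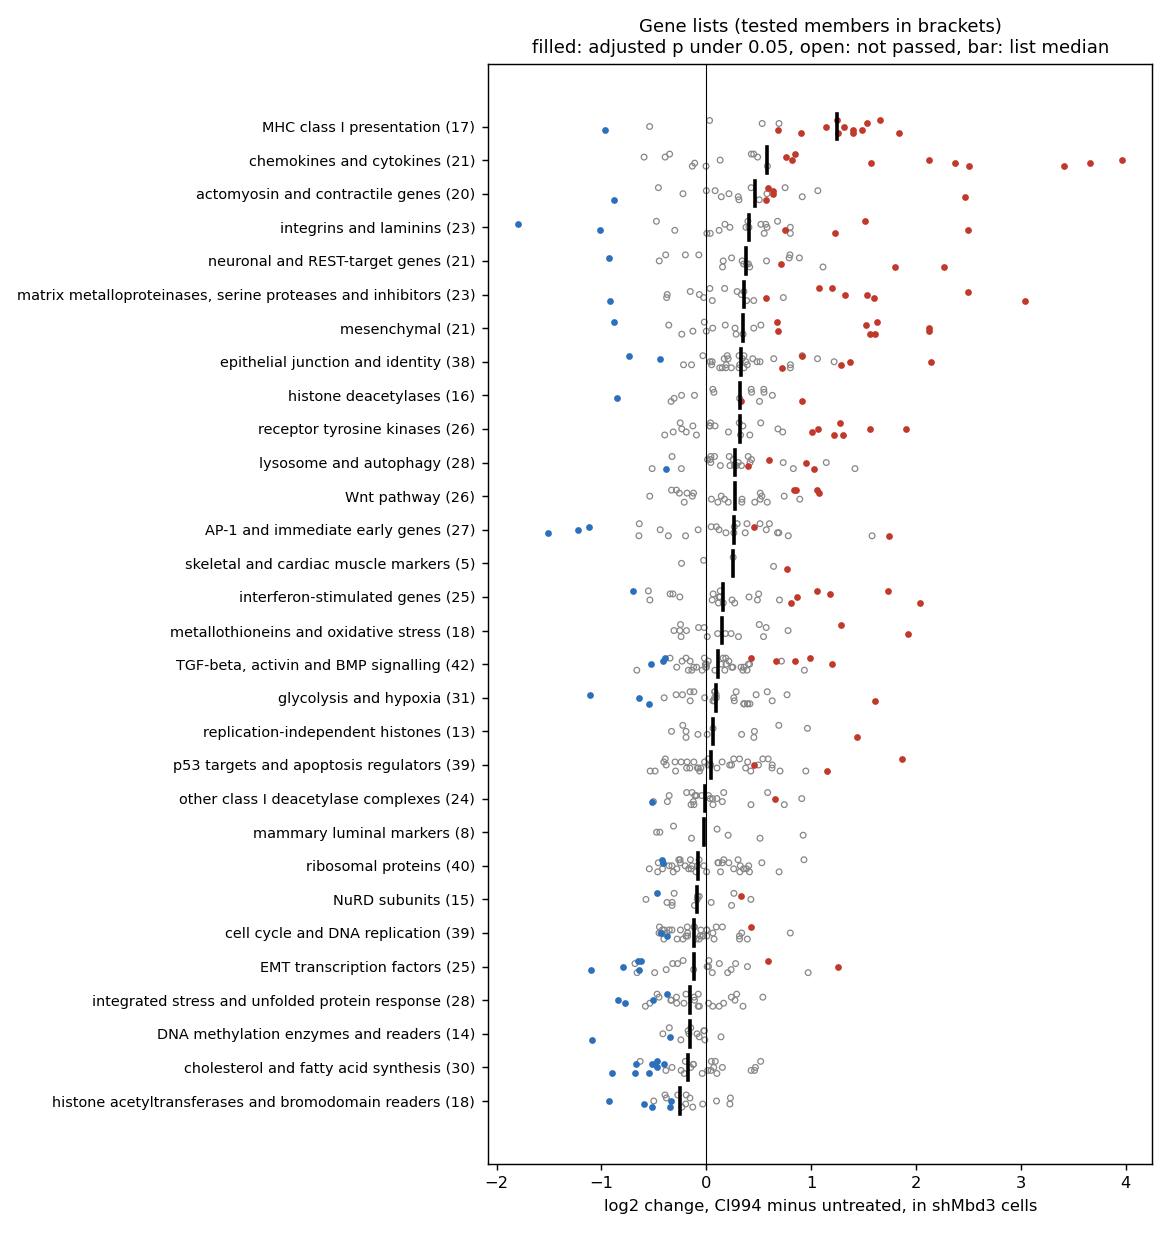
Log2 change with CI994 in shMbd3 cells (x axis) of every tested member of the lists with at least 5 tested members, 1 point per gene, filled where limma's adjusted p was under 0.05. The black bar is the list median, which ran from -0.25 for acetyltransferases and bromodomain readers to 1.25 for MHC class I presentation.

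Marker genes of other lineages were read by list. Of 60 neuronal genes, many of them held silent outside neurons by the REST corepressor complex, 21 were tested, 3 rose, 1 fell and 17 did not pass (8 and 2 without shControl replicate 1), and 21 were at 0 in all 4 libraries. Mapt, the microtubule protein tau, rose from 0.793 and 0.402 to 5.72 and 3.98 CPM. Stmn2, a stathmin of growing axons, was at 0 in both untreated libraries and at 1.6 and 0.995 CPM treated, at least 9.68-fold higher against the floor of 3 reads per library. Of 30 germline genes 2 were tested, and Rhox5, a homeobox gene of testis that passed the filter only through the treated shMbd3 libraries, was at 0.25 and 0.268 CPM untreated and 2.06 and 2.3 CPM treated. The neuronal Syt4, 1 of the 3 rises, was likewise tested through those libraries alone. The calls of Rhox5 and Syt4 are therefore no support for a change. Of 11 mammary basal markers 4 were tested, 1 rose and 1, Acta2, fell, and the summed level of the list was 450 and 409 CPM untreated and 433 and 347 CPM treated. In all 4 libraries 8 of the 11 were under 0.5 CPM. Krt14, a keratin of basal cells, rose from 22.8 and 17 to 108 and 78.1 CPM and lost its call in 2 of 4 fits (up to 0.0854). None of 8 tested luminal markers, of 3 adipocyte markers and of 1 endothelial marker passed, but without shControl replicate 1 the luminal markers gave 3 higher and 2 lower and the adipocyte markers 1 higher. The luminal list summed to 2778 to 3164 CPM in the 4 libraries, but 9 of its 17 members were under 0.5 CPM in all 4. Csn2, Lalba, Pgr, Prlr and Wap were at 0 throughout. Of 5 tested muscle markers Myh3, an embryonic myosin named because it alone passed, rose from 0 and 0.134 to 0.505 and 0.435 CPM, and Tnnt2, cardiac troponin T, was at 121 and 132 CPM untreated and 201 and 195 CPM treated without a call (adjusted p = 0.0944; 0.000293 without shControl replicate 1). In the luminal list the smallest p was that of Areg, an EGF receptor ligand, at 32.3 and 24.9 and 58.6 and 50.5 CPM (adjusted p = 0.0847; 0.0017 without that library), and in the adipocyte list that of the lipase Lipe, at 6.34 and 7.99 and 12.9 and 14.9 CPM (0.0713; 0.00236).

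In all, 79 of the 12808 tested genes were under 0.5 CPM in both untreated libraries and at 1 CPM or more in both treated ones. They include Rhox5, which passed the filter only through the treated shMbd3 libraries. Ccl7, Pappa, Lyz2, Des and E230016K23Rik had the highest treated means, followed by Tcp11x2, Slc6a13 and Glyat. Glyat, a mitochondrial glycine acyltransferase, was at 0.292 and 0.402 CPM untreated and 4.16 and 2.98 CPM treated, and Tcp11x2 at 0.292 and 0.223 and 5.17 and 2.67 CPM. Slc6a13, a GABA transporter, had 2 reads in the untreated libraries and 153 in the treated, a ratio of 89.0 with a counting interval of 24.2 to 741. Of the 79 genes, 44 were also at 1 CPM or more in both shTet2 CI994 libraries and 42 in both shControl CI994 libraries. These 2 counts read the treated level only and do not show a switch from off to on there. In both untreated shTet2 libraries 59 of the 79 were under 0.5 CPM, and Ccl7 was at 2.47 and 1.63 CPM in untreated shControl. The reverse pattern, 1 CPM or more in both untreated and under 0.5 CPM in both treated libraries, was met by 8 genes: Igflr1, Ttc39aos1, Angpt2, Aqp8, Egr2, Igfbp3, Cdh23 and Fndc4. Aqp8, a water channel, went from 3.13 and 2.23 to 0.126 and 0.124 CPM, and Igfbp3, which binds insulin-like growth factors, from 2.71 and 3.97 to 0.378 and 0.249 CPM.

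The falls were smaller than the rises. Rcbtb2 went from 21.7 and 18.6 to 4.84 and 4.79 CPM (3.89-fold lower, log2 -1.96 ± 0.18, adjusted p = 0.000469). Arhgef28, an exchange factor for RhoA, went from 58.4 and 59.5 to 15.7 and 18.7 CPM, and Podxl, a sialomucin of the cell surface, from 13.1 and 11.9 to 4.04 and 3.17 CPM. The rule that named these falls required the highest treated library to stand below the lowest untreated one, as it did for 34.5% of all tested genes. The other largest falls were those of Itgb7, Ralyl, Sema5a, Poglut3, Fosb, Amigo2, Pogk, Kansl1l and Trim65, with log2 changes from -1.79 to -1.34. Except for Itgb7 and Poglut3, whose call was lost in 1 fit (0.0526), these 12 calls held without any of the 4 libraries. Hmga2, an architectural chromatin protein of embryonic and tumour cells, was chosen after its values were seen for its high level: 1985 and 2028 CPM untreated and 813 and 845 CPM treated (log2 -1.28 ± 0.12, adjusted p = 0.000469). Angptl2, a secreted glycoprotein chosen likewise, fell from 283 and 313 to 121 and 142 CPM.

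Called genes were unevenly spread over expression level and GC content. Of 5 equal sets ordered by mean CPM, the lowest held 424 rises and 67 falls and the highest 89 rises and 144 falls. Along the GC content of the transcript, known for 95.6% of tested genes, the median log2 change over 5 such sets was -0.10, -0.12, -0.05, 0.08 and 0.28 from low to high GC. The trend was seen with CI994 in the other lines too, from -0.36 to 0.46 in shTet2 and from -0.48 to 0.68 in shControl. The shControl values include replicate 1, the library that differs along GC. Without it the shControl trend was narrower but still rose with GC, from -0.19 to 0.18. The 2 shMbd3 CI994 replicates differed from each other along GC by -0.387 and the untreated pair by -0.125 (lowest to highest decile), and the part of GC content in single results was not tested beyond the fit with the trend removed.

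**Figure D4:**
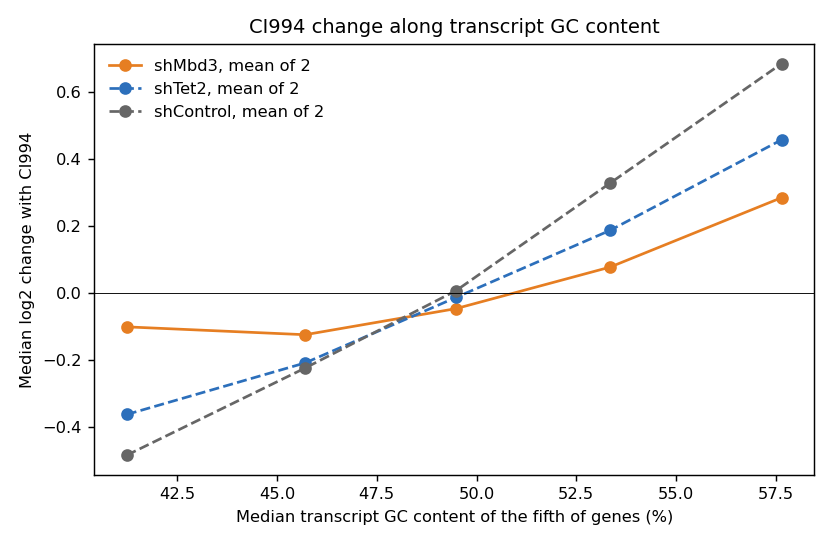
Median log2 change with CI994 (y axis) in 5 equal sets of genes ordered by transcript GC content (x axis, median GC of the set in percent), for shMbd3 (solid), shTet2 and shControl (dashed), each the change between means of 2 libraries. In shMbd3 the medians run from -0.10 to 0.28, against -0.48 to 0.68 in shControl, whose untreated mean includes replicate 1, and -0.19 to 0.18 there without it.

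The same treatment in shTet2 and shControl cells asks whether the response differs when Mbd3 is lowered. These comparisons share no library with the shMbd3 comparison. In shTet2 cells 1610 genes rose (12.6%) and 1497 fell (11.7%), and in shControl cells 2295 rose (17.9%) and 2009 fell (15.7%). The shControl values rest on replicate 1, the library that stands apart, for 1 of their 2 untreated libraries. Of the 970 genes that rose in shMbd3, 765 also rose in shTet2 (78.9% of the shMbd3 list, 47.5% of the shTet2 list) and 699 in shControl (72.1% and 30.5%). Of the 655 that fell, 462 also fell in shTet2 (70.5% and 30.9%) and 446 in shControl (68.1% and 22.2%). No call of shMbd3 was called in the opposite direction in shTet2, and 6 that rose in shMbd3 fell in shControl. Over the tested genes the median size of the log2 change was 0.25 in shMbd3, 0.35 in shTet2 and 0.43 in shControl, and 702, 1138 and 1616 genes changed by more than 1 in log2. Log2 changes of the 12808 genes correlated at r = 0.797 between shMbd3 and shTet2 and at 0.714 between shMbd3 and shControl, across genes, which are not independent replicates. With shControl replicate 1 left out, the shControl counts were 2063 higher (16.1%) and 1747 lower (13.6%), together 3810 (29.7%). Those of shTet2 were 3738 (29.2%) and 3630 (28.3%), together 7368 (57.5%). The median size in shControl was then 0.25, as in shMbd3, 778 genes changed by more than 1 in log2, and r was 0.729. In that fit shMbd3 and shControl shared 1483 rises (53.4% and 71.9%) and 1145 falls (44.3% and 65.5%), and 16 of the shMbd3 rises and 12 of its falls were called in the opposite direction in shControl (31 and 18 in shTet2).

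**Figure D5:**
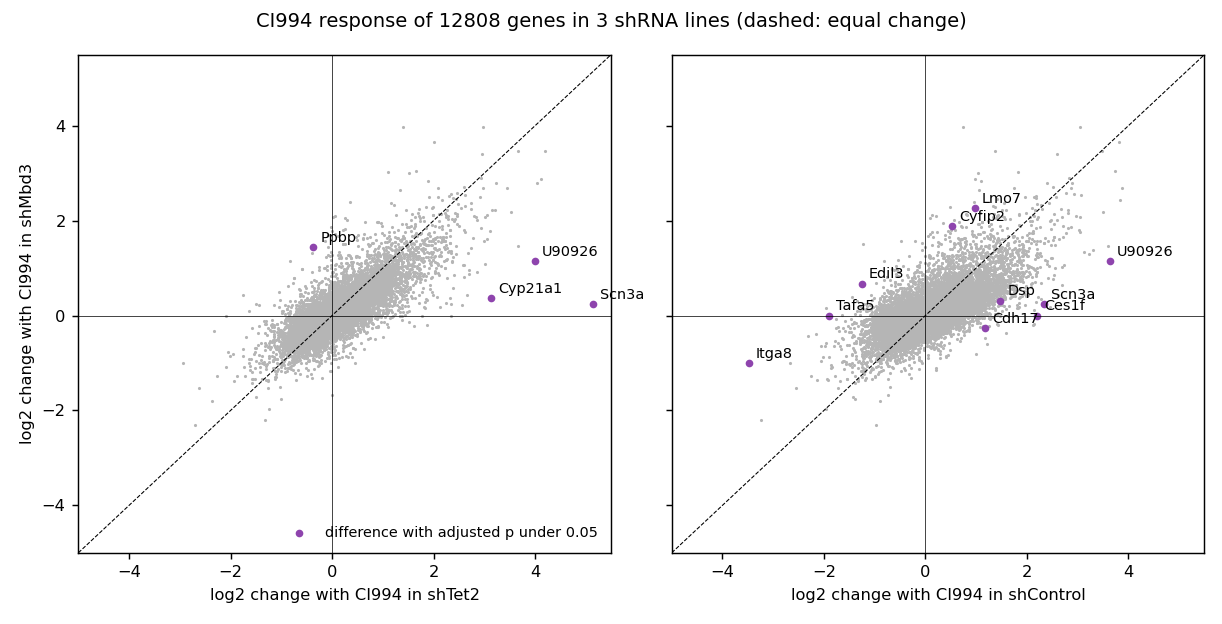
Log2 change with CI994 in shMbd3 (y axis) against that in shTet2 (left x axis) and shControl (right x axis), 1 point per tested gene, with a dashed line of equal change. Purple marks the 4 and 10 genes whose difference between lines had an adjusted p under 0.05.

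Tested directly, the difference in response between shMbd3 and shTet2 passed for 4 genes (0.0312%), 1 higher (0.00781%) and 3 lower (0.0234%) in shMbd3, and 980 had an unadjusted p under 0.05. Without shControl replicate 1 the counts were 344 higher (2.69%) and 201 lower (1.57%), 545 in all (4.26%). Ppbp rose in shMbd3, from 3.3 and 3.35 to 10.1 and 9.82 CPM, and was at 9.07 and 8.07 CPM untreated and 6.09 and 7.6 CPM treated in shTet2 (difference 1.82 ± 0.22, adjusted p = 0.0402). Scn3a, a neuronal sodium channel, was at 0 in untreated shMbd3 and at 0.126 and 0.0622 CPM with CI994, at or under the floor, while in shTet2 it went from 0.0472 and 0 to 21.4 and 15.2 CPM (difference -4.89 ± 0.28, adjusted p = 0.00026). Cyp21a1, the steroid 21-hydroxylase, reached 0.421 and 0.124 CPM in shMbd3 and 7.73 and 6.3 CPM in shTet2 (difference -2.76 ± 0.30, adjusted p = 0.0244). U90926, chosen as the only remaining passing gene, reached 0.631 and 0.622 CPM in shMbd3 and 37.9 and 38.5 CPM in shTet2 (difference -2.85 ± 0.22, adjusted p = 0.0024). The size of a difference that involves values at or near 0 depends on the 0.5 CPM added.

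Between shMbd3 and shControl the difference passed for 10 genes (0.0781%), 5 higher and 5 lower in shMbd3 (0.039% each), and 1630 had an unadjusted p under 0.05. This comparison rests on the library labelled shControl replicate 1, and without it 93 genes passed (0.726%), 49 higher (0.383%) and 44 lower (0.344%), including the 10. The actin regulator Cyfip2 rose more in shMbd3, from 11.8 and 11.9 to 45.3 and 44.9 CPM, than in shControl, from 12.4 and 14.6 to 20.3 and 19.8 CPM (difference 1.36 ± 0.18, adjusted p = 0.0472). Lmo7, a protein of adherens junctions, went from 13.8 and 13.2 to 71 and 63.3 CPM in shMbd3 and from 83 and 78.6 to 153 and 173 CPM in shControl (difference 1.29 ± 0.17). The untreated level of Lmo7 was lower in both shMbd3 libraries than in both shControl libraries. Dsp, the desmosomal plaque protein, stood at 227 and 247 CPM untreated and 305 and 287 CPM treated in shMbd3 and went from 59.2 and 77 to 192 and 192 CPM in shControl (difference -1.16 ± 0.15, adjusted p = 0.0466). Cdh17, an intestinal cadherin, gave 7.01 and 8.03 and 6.48 and 5.84 CPM in shMbd3 but 12.2 and 11.8 and 28.4 and 28.7 CPM in shControl (difference -1.46 ± 0.20). Edil3, an integrin ligand, rose from 8.64 and 9.99 to 15.7 and 14.6 CPM in shMbd3 and fell from 46.2 and 39.8 to 16.6 and 19.7 CPM in shControl (difference 1.92 ± 0.23). The shMbd3 rise of Edil3 lost its call in all 4 fits that left out a library, with log2 changes of 0.58 to 0.76. Itga8, an integrin chain, fell in both lines, to 0.0841 and 0.0622 from 0.543 and 0.803 CPM in shMbd3 and to 2.48 and 2.67 from 36.2 and 30.2 CPM in shControl (difference 2.47 ± 0.27). Both treated shMbd3 values of Itga8 lay under the floor of 3 reads, so the size of this difference depends on the 0.5 CPM added. The shMbd3 fall of Itga8 lost its call in 3 of the 4 such fits. Tafa5 and Ces1f were at 0 in all 4 shMbd3 libraries, so that their differences (1.91 ± 0.24 and -2.20 ± 0.20) describe a change in shControl alone, and Scn3a and U90926 were the remaining passing genes (difference -2.10 ± 0.28 and -2.48 ± 0.22).

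Cd74, Ccl9 and Mmp13, among the largest rises of shMbd3 cells, were not shown to differ between lines. Cd74, at 16.7 and 14 CPM with CI994 in shMbd3, reached 1.27 and 0.581 CPM in shTet2 and 0.681 and 0.151 CPM in shControl, with differences in response of 2.59 ± 0.45 (adjusted p = 0.12) and 3.24 ± 0.45 (0.0586). Without shControl replicate 1 the adjusted p was 0.0176 and 0.0183. Ccl9 had differences of 0.99 ± 0.57 and 0.93 ± 0.57 (adjusted p = 0.806 and 0.501). Mmp13, at 128 and 109.7 CPM treated in shMbd3, reached 199 and 239 CPM in shTet2 and 623 and 428 CPM in shControl, with differences of 1.39 ± 0.30 and -0.69 ± 0.30 (adjusted p = 0.185 and 0.392, and 0.0219 and 0.173 without shControl replicate 1). With CI994, Cdh1 rose from 202 and 207 to 319 and 320.5 CPM in shTet2 (log2 0.57, limma adjusted p = 0.0297). It also rose in shControl, from 16.3 and 25.7 to 34.7 and 36.6 CPM (log2 0.75, limma adjusted p = 0.00976, with shControl replicate 1 included). The differences of the shMbd3 response of Cdh1 from these, -0.42 ± 0.22 and -0.60 ± 0.22, did not pass (adjusted p = 0.769 and 0.334).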

How the data were processed

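Total RNA was sequenced with a stranded TruSeq kit, per the labels' protocols. The submitters' processing notes name STAR and mm10, and the counting method and annotation are not given in the sources used here. The authors deposited CPM for the 12 M3 shRNA libraries. Every value was a whole multiple of 1 read within 0.01 read (100% of values), so that whole reads were recovered, 16086082 to 24977595 per library. The 8 libraries of the series given in another unit were not used here.

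CPM divided by TMM factors (edgeR 4.0.16) plus a pseudocount of 0.5 were log2-transformed and fitted in limma 3.58.1 (R 4.3.3) with 1 mean per group over the 12 libraries, a mean trend and robust moderation. The tests were the CI994 effect in shMbd3 and its differences from those in shTet2 and shControl, over 12808 genes at an adjusted p of 0.05 (Benjamini-Hochberg). SE are from the fit. In simulated data with this design the first test found 57% of 2-fold and 95% of 4-fold changes with 6 false calls, and the difference from shTet2 18% and 83%. The changed genes were drawn from those with a mean of at least 1 CPM. The simulated libraries held no GC trend, no link between replicates and no outlying library, so these shares may not carry over to the data.

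Members and the 37 gene lists were chosen with earlier results of these data known. Named were the 12 largest rises and falls with at least 5 CPM in the higher group that did not overlap between groups, leaving out numbered gene models, up to 4 passing genes per list and direction, up to 6 per difference and direction, the 8 highest genes that went from under 0.5 to at least 1 CPM, and a fixed set (Mbd2, Mbd3, Tet2, H1f0, Cdkn1a, Cdkn1c, Hdac1, Hdac2, Hdac3, Hdac8, Zeb1, Snai1, Cdh1, Cdh2, Vim, Fn1, Epcam). Some genes that this rule names are not reported here, and the counts include them. Others are said to be chosen after their values were seen. Gene positions and promoter windows are RefSeq's for GRCm38.p6, the assembly of mm10, and 24374 of 24454 gene IDs matched. Alternatives were other scalings, filters and pseudocounts, a replicate block, a GC correction, edgeR and DESeq2 1.42.0 on the recovered reads, and leaving out libraries.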

Additional observations from a re-analysis of the deposited data

Results flagged for a closer look

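For 14 results the response to CI994 differed between lines by limma's test of the difference (Benjamini-Hochberg). Against shTet2 the differences in log2 change (shMbd3 minus shTet2) were 1.82 for Ppbp (adjusted p = 0.0402), -2.76 for Cyp21a1 (0.0244), -4.89 for Scn3a (0.00026) and -2.85 for U90926 (0.0024). Against shControl they were 2.47 for Itga8 (0.0288), 1.92 for Edil3 (0.0354), 1.91 for Tafa5 (0.0466), 1.36 for Cyfip2 (0.0472) and 1.29 for Lmo7 (0.0466). Lower in shMbd3 were Dsp at -1.16 (0.0466), Cdh17 at -1.46 (0.0479), Scn3a at -2.10 (0.0466), Ces1f at -2.20 (0.00997) and U90926 at -2.48 (0.00997). All 14 still passed without shControl replicate 1 (adjusted p from 3.7e-05 to 0.0226), but edgeR called 0 genes for either difference. With a pseudocount of 0.1 the counts were 1 and 0, and leaving out any shMbd3 or shControl CI994 library left 0 calls for the difference from shControl. DESeq2 called more genes, 43 and 115, but these held only 1 of the differences from shTet2 listed here and 5 of those from shControl. A fit of only the groups compared kept all 4 differences from shTet2 and 0 of those from shControl. Tafa5 and Ces1f were at 0 in all 4 shMbd3 libraries, and Scn3a was at or under the floor there. Itga8 was under the floor in both shMbd3 CI994 libraries, so the size of its difference depends on the pseudocount.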

How the results depend on the processing

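The count of 1625 calls for CI994 in shMbd3 stayed within 1.5 times (1505 to 2411) with other scalings, no filter, other pseudocounts, the replicate block, edgeR and DESeq2. It was 4580 with only the groups compared, 3437 with the GC trend removed, 4654 with GC trend and block, 5360 without both shControl libraries (added after seeing the data), and 454 to 5362 when 1 library was left out, highest without shControl replicate 1. Of 158 named calls none reversed in any of these settings, 158 remained without that library, and 76 to 90 remained without 1 of the 4 shMbd3 libraries, where the lone sample of an arm is assumed to vary like the other groups.

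For the difference from shTet2 (4 genes) the counts were 38 with no filter, 1 and 24 with pseudocounts 0.1 and 1, 425 with only the groups compared, 70 with the GC trend removed and 264 with the block added, 43 by DESeq2, 534 without both shControl libraries, 2 to 545 without 1 library, and 0 by edgeR, with 832 at an unadjusted p under 0.05. For the difference from shControl (10 genes) they were 5 by library size, 36 with no filter, 0 and 41 with pseudocounts 0.1 and 1, 0 with only the groups compared, 108 with the GC trend removed and 648 with the block added, 115 by DESeq2, 0 by edgeR (1498 unadjusted), and 0 to 6316 without 1 library, highest without shControl replicate 2, where the library labelled replicate 1 stands alone. Where limma called 0 for this difference, 849 to 1515 genes had an unadjusted p under 0.05. The cause of these moves was not tested. The 43 and 115 genes called by DESeq2 held only 1 of the 4 and 5 of the 10 genes of the main fit.

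The labels do not say that a replicate number marks a shared experiment, and with 2 numbers the data cannot settle it. Replicate differences correlated between groups at 0.0957 to 0.524 (0.318 between the shMbd3 groups), which hints at a pairing, and the replicate block gave 2411, 6 and 31 calls for the 3 comparisons.

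Uncalled genes that changed sign were Tet2 (0.024 with the GC trend removed, alone or with the block, and -0.16 to 0.025 without 1 library), Zeb1 (-0.065 to 0.081 without 1 library) and Krt18 (-0.045 with the GC trend removed, alone or with the block). Depth limits values at or under 0.186 CPM, where 0 and 3 reads are not distinguishable.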
